A study of Mus musculus with 4 samples.

Results

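The netrin-G genes and the genes of their synaptic ligands were examined at sites bound by an antibody against N6-methyladenosine (m6A), the methyl mark on adenosines of RNA, in mouse cerebral cortex. The 5 genes were Ntng1 and Ntng2, which encode netrin-G1 and netrin-G2, and Lrrc4c, Lrrc4 and Lrrc4b, which encode the netrin-G ligands NGL-1, NGL-2 and NGL-3. Every peak that the deposited peak table assigns to 1 of these gene names was taken, which gave 33 of 33977 peaks, and all 5 of the genes had a peak among 10415 genes in the table. The groups were cortex of injured mice, whose model is repetitive mild traumatic brain injury (rmTBI, labelled TBI), and cortex of sham mice, with 2 libraries each, numbered 0 and 1 in the labels. The labels name 1 antibody, against m6A, for all 4 libraries. Counts at a peak therefore depend on how much of the transcript is present as well as on how much of it is methylated. The labels leave out strain, age and number of mice, how and when the injury was given, and what 0 and 1 stand for. Whether the libraries of a group are separate animals is thus unknown. Whether those numbered 0 are input RNA could not be settled either, since the labels name the antibody for all 4 libraries while the fold in the authors' deposited table is built from ratios of number 1 over number 0. If they are, SDs and SEs span both kinds of library. The p-values measure the spread between the libraries of a group and no more (it may be technical), and differences are also given within each number. Total counts over the table were 13753600 and 26888072 in rmTBI libraries 0 and 1, and 14437317 and 26356562 in sham libraries 0 and 1.

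Netrin-Gs are relatives of the secreted netrins that stay on the cell surface through a lipid anchor, and they do not act through the classical netrin receptors. Netrin-G1 on axons binds NGL-1 on dendrites, and netrin-G2 binds NGL-2, so that each pair marks the dendritic segment that a given axon reaches. In the brain, Ntng1 is known from thalamic relay neurons and their axons into the cortex, whereas Ntng2 and the ligand genes are known from cortical neurons. NGL-3 binds the receptor phosphatases of the LAR family instead of a netrin-G.

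The peaks were called once in rmTBI and once in sham and stacked in the table, which gave 15 rows from the rmTBI set and 18 from the sham set, of which 16 were classed as coding sequence, 11 as 3' UTR and 6 as 5' UTR. Rows that overlapped on the same strand share reads and were joined into 14 sites, numbered here from 5' to 3' along each transcript: 5 in Ntng1, 1 in Ntng2, 3 in Lrrc4, 2 in Lrrc4b and 3 in Lrrc4c. Of the 14 sites, 13 held rows of both sets. The exception was the 3' UTR site of Lrrc4, called in sham only. All peaks lay inside the span of their gene in the RefSeq annotation of GRCm38.p6, and coordinates are given as in the deposited table and read on that build, although the submitters' processing notes name GRCm39. A peak's length runs from its first to its last base with introns included, and no source used here says whether reads in introns were counted.

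The 5' UTR site of Ntng1 on chromosome 3 (110143142 to 110143562, minus strand) was the one member site that reached into the RefSeq start window of its gene. The window runs from 250 bases before a RefSeq start to 50 after it. For Ntng1 that start, 110143472, lies inside the RefSeq span of the gene, whose 5' end is at 110149972. The only sequence under a member peak that was at hand is 140 bases of the sham-set peak of this site. The rmTBI-set peak of the site does not reach the window. Of these 140 bases, the stretch of 30 bases that holds the most consensus forms of m6A is printed. It is written 5' to 3' on the transcript's strand from chr3:110143497-110143526 of GRCm38.p6, with the consensus forms in capitals.

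Ntng1: atgttcagTGACAtttcTGACTtgagtgga

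The consensus was searched in its 18 forms of 5 letters on the transcript's strand, and TGACA and TGACT are the 2 forms in this stretch. The stretch ends 25 bases before the RefSeq start that defines the window, and the sham-set peak runs past that start. Of 32851 RefSeq windows of 300 bases, 98.4% held a form somewhere and 72.2% held at least 2 forms within 30 bases, so the match is a description and no mark of a methylated base.

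Reads at Ntng1 were lower in rmTBI at all 5 sites, from the 5' UTR to the end of the 3' UTR, with log2 folds from -2.30 to -1.72 over its 11 peaks. Reads at Ntng2, Lrrc4, Lrrc4b and Lrrc4c lay close together in both groups, with log2 folds from -0.15 to 0.22 over their 22 peaks. The genes were taken up with an earlier result for Ntng1 in the same contrast known, and its differences are therefore given as a description, with no test. Levels are read counts scaled to a common library total (CPM) with TMM scaling, which sets the typical peak equal between libraries, and log2 folds with their standard errors (SE) come from edgeR's quasi-likelihood fit over all peaks.

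The highest CPM of Ntng1, not corrected for length, was that of site 2, its longest, a coding peak on chromosome 3 (110135315 to 110143023 in the sham set, 7709 bases). It held 36.2 and 39.3 CPM in rmTBI libraries 0 and 1, against 152 and 165 CPM in sham libraries 0 and 1. Both rmTBI libraries lay far below both sham libraries, and the libraries of a group lay close to each other. The means were 37.8 ± 2.16 CPM in rmTBI and 158 ± 8.95 CPM in sham (SD, n = 2 libraries each), a log2 fold of -2.07 (SE 0.24). The rmTBI-set row of the same site shares most of its reads and stood at -2.06 (SE 0.24).

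The 3' UTR of Ntng1 held sites 4 and 5. At site 4 (109782285 to 109782795, rmTBI set) there were 13.7 and 23.7 CPM in rmTBI libraries 0 and 1, and 56.1 and 109 CPM in sham libraries 0 and 1. The groups did not overlap, but within each group library 1 stood well above library 0, and the SE of the log2 fold of -2.14 was 0.41. At site 5, nearest to the transcript's end (109781356 to 109781687, sham set), there were 4.55 and 7.81 CPM in rmTBI libraries 0 and 1, and 26.95 and 34.2 CPM in sham libraries 0 and 1. Its log2 fold of -2.29 (SE 0.33) and that of its rmTBI-set row, -2.30 (SE 0.36), were the lowest of the gene.

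At the 5' UTR site, site 1, the sham-set peak held 10.01 and 10.9 CPM in rmTBI libraries 0 and 1, and 32.1 and 42.9 CPM in sham libraries 0 and 1. This was the site with the smallest difference by its strongest row, at a log2 fold of -1.85 (SE 0.28). Site 3 (109934603 to 109935113, sham set), a coding site that was called as 1 peak in sham and as 2 peaks in rmTBI, held 3.94 and 4.25 CPM in rmTBI libraries 0 and 1, and 15.9 and 17.5 CPM in sham libraries 0 and 1. Its log2 fold was -2.03 (SE 0.26), and its 2 rmTBI-set rows stood at -1.72 (SE 0.30) and -2.07 (SE 0.34). By the sham-set rows, site 3 held the lowest CPM of the 5 sites in all 4 libraries, again not corrected for length.

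**Figure D1:**
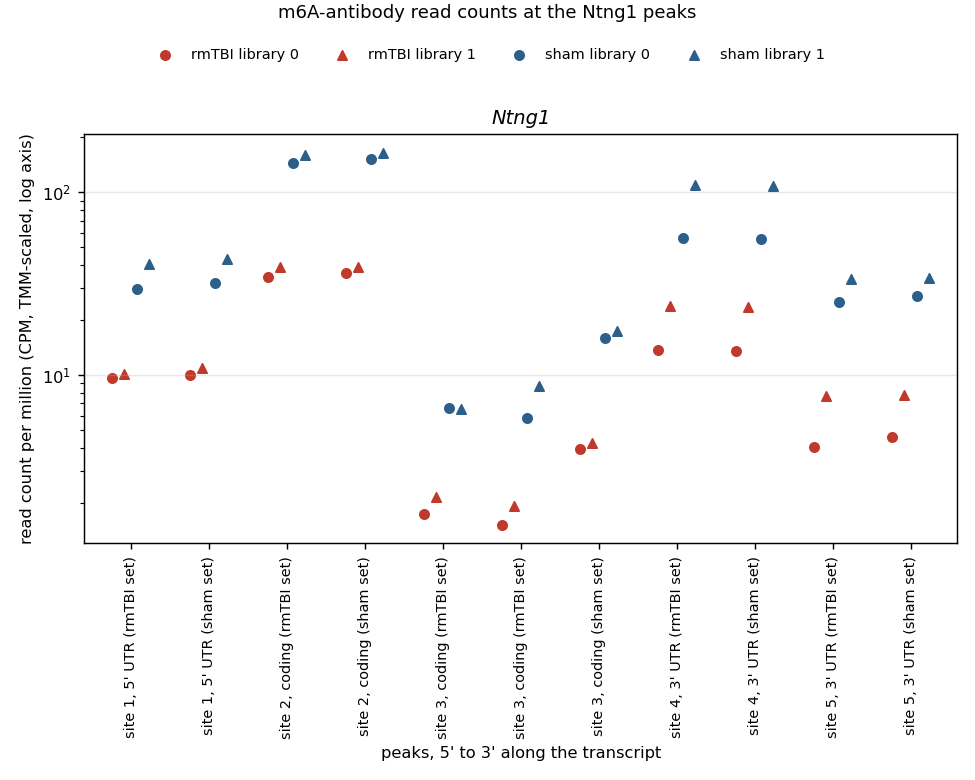
CPM (TMM-scaled, log axis) at the 11 Ntng1 peaks, ordered 5' to 3' along the transcript, with 1 point per library (circles for library 0, triangles for library 1, rmTBI in red and sham in blue). At all 11 peaks both rmTBI libraries sit below both sham libraries.

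For 11 of the 11 Ntng1 peaks the higher rmTBI library lay below the lower sham library, as it did for 12.3% of the 33415 tested peaks. The log2 fold was -2 or lower at 8 of the 11, and at 0.32% of all tested peaks. At an adjusted p under 0.05 (quasi-likelihood test of edgeR, adjusted over all tested peaks by Benjamini-Hochberg), 2 of the 11 were called lower, both rows of site 2, where 0.0868% of all tested peaks were called, every one of them lower. The count of called member peaks was 0 with library-size scaling or with a minimum of 10 counts per library, 11 by DESeq2, and 5 to 11 with a library left out (5 without sham library 1, 6 without rmTBI library 0, 10 without sham library 0, 11 without rmTBI library 1). A library left out leaves its group with 1 library, which is assumed to vary like the other group. These counts describe values that were known when the genes were chosen and are no evidence about Ntng1. Within the libraries numbered 0 the log2 folds of the 11 peaks ran from -2.65 to -1.63, and within those numbered 1 from -2.20 to -1.59. Among 2194 genes with at least 5 tested peaks, Ntng1 had the 6th lowest median log2 fold (-2.07), between Nexn (-2.24), an actin-binding protein gene, and Prox1 (-1.78), a homeobox gene.

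The distribution of reads along Ntng1 was set out over the 5 sham-set rows. The 3' UTR sites took 26.5% of the reads in rmTBI library 0 (95% Wilson interval 23.7 to 29.5) and 36.7% in rmTBI library 1 (34.7 to 38.6). In sham they took 29.2% in library 0 (27.8 to 30.7) and 38.9% in library 1 (37.9 to 39.8). The 3' UTR share thus differed more between library 1 and library 0 of a group than between rmTBI and sham libraries of 1 number. Coding sites took 58.8% and 50.7% in rmTBI libraries 0 and 1, against 59.4% and 49.4% in sham libraries 0 and 1. The 5' UTR site took 14.7% and 12.7% in rmTBI, against 11.4% and 11.7% in sham. The totals behind these shares were 901 and 2387 counts in rmTBI, and 3962 and 10069 counts in sham. The intervals cover counting error only, since reads amplified by PCR without molecular identifiers are not independent molecules.

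Marker genes of brain regions and cell types were set beside Ntng1. Of 14 thalamic markers 13 were measured (Prkcd had no peak among the rows analysed here), and 12 of the 13 had a median log2 fold below 0, with a list median of -1.92 over the genes. Their summed level, 1 peak per gene, was 208 and 179 CPM in rmTBI libraries 0 and 1, and 606 and 601 CPM in sham libraries 0 and 1. In this list 12 of 46 peaks, of 5 genes, were called lower by edgeR and 28 by DESeq2, where 0.0868% of all tested peaks were called by edgeR and 0.423% by DESeq2. By edgeR the called peaks were 4 each of Tcf7l2 and Plekhg1, 2 of Slc17a6 and 1 each of Lhx9 and Shox2. Tcf7l2 and Plekhg1 also had the 2nd and 3rd lowest median log2 fold of the 2194 genes ranked above. The list was chosen with earlier results of these data known, so these counts describe it and are no evidence about the list. Its part in the Ntng1 result was not tested. In bulk tissue fewer cells of a type, less RNA per cell and less methylation of that RNA cannot be told apart.

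Striatal neuron markers lay below 0 in 8 of 8 genes (median -0.94), with summed levels of 731 and 661 CPM in rmTBI libraries 0 and 1, and 1369 and 1258 CPM in sham libraries 0 and 1. Oligodendrocyte markers lay below 0 in 6 of 6 measured genes (median -0.80), with 398 and 355 CPM in rmTBI, and 579 and 541 CPM in sham. Choroid plexus and ependyma markers lay below 0 in 3 of 4 measured genes (median -1.51), with 12.6 and 12.1 CPM in rmTBI, and 39.6 and 40.9 CPM in sham, while the defining markers Ttr and Folr1 had no peak among the rows analysed here. The part of these lists in the Ntng1 result was not tested either. Cortical excitatory neuron markers, which mark the labelled tissue, were all measured (10 of 10), and 9 of the 10 lay above 0 (median 0.37). The median over all tested peaks with counts in every library was 0.02. Summed levels of the cortical markers were 458 and 567 CPM in rmTBI libraries 0 and 1, and 326 and 421 CPM in sham libraries 0 and 1. In the striatal, oligodendrocyte, choroid plexus, cortical, astrocyte and microglial lists edgeR called 0 peaks. An unadjusted p under 0.05 was found there at 23 of 31, 14 of 19, 9 of 11, 9 of 52, 0 of 23 and 2 of 15 peaks in the same order, where 2.84% of all tested peaks had one, and DESeq2 called 6 of the 11 choroid plexus peaks and 0 in the others. Astrocyte and microglial markers had medians of 0.07 (3 of 5 genes above 0) and 0.26 (5 of 6 above 0).

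The 5 genes whose peak profile over the 4 libraries was closest to that of the Ntng1 site 2 peak were found among 7161 genes, by the Euclidean distance between log2 CPM profiles centred on their own means. They were Clic6 (distance 0.21), Nexn (0.22), Plekhd1 (0.29), Vangl1 (0.30) and Fhdc1 (0.33). Clic6, also a gene of the choroid plexus and ependyma list, encodes a chloride intracellular channel protein, Vangl1 a planar cell polarity protein and Fhdc1 a formin-type protein. Each gene entered by its closest peak only. Log2 folds ran from -2.43 to -0.03 over the 6 peaks of Nexn and from -1.89 to -0.98 over the 4 of Fhdc1. The 2 peaks each of Clic6 and Vangl1 lay close together, and Plekhd1 had 1 peak. The closest, a coding peak of Clic6 on chromosome 16 (92498754 to 92499382), held 6.60 and 7.16 CPM in rmTBI libraries 0 and 1, and 23.7 and 26.6 CPM in sham libraries 0 and 1.

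Ntng2, the gene of netrin-G2, had 1 site on chromosome 2 (29227649 to 29228066, minus strand, coding). Its rmTBI-set peak held 8.87 and 13.2 CPM in rmTBI libraries 0 and 1, and 7.27 and 13.1 CPM in sham libraries 0 and 1. The groups overlapped, and library 1 was the higher in each. The log2 fold was 0.11 (SE 0.35, 95% interval -0.72 to 0.93, adjusted p = 1, edgeR). The interval takes in a change of nearly 1 on the log2 scale in the higher direction, so the spread between libraries limits what this peak can show.

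Lrrc4c, the gene of NGL-1, the ligand of netrin-G1, had the highest level per length of the ligand genes and 3 sites on chromosome 2 (plus strand). Site 2, classed as 5' UTR (97231669 to 97468256, sham set, 236588 bases), held 604 and 528 CPM in rmTBI libraries 0 and 1, and 507 and 466 CPM in sham libraries 0 and 1. It was the single peak of the 22 outside Ntng1 where both rmTBI libraries lay above both sham libraries, where 12.3% of all tested peaks did. Its log2 fold was 0.22 (SE 0.20, 95% interval -0.25 to 0.69, unadjusted p = 0.309, adjusted p = 1, edgeR quasi-likelihood test). The rmTBI set called only the last 688 bases of this site (97467658 to 97468345), with 96.0 and 131 CPM in rmTBI libraries 0 and 1 and 85.4 and 109 CPM in sham libraries 0 and 1, and the log2 fold there was 0.22 (SE 0.27) as well.

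Site 1 of Lrrc4c, also classed as 5' UTR (96318347 to 96568692, rmTBI set, 250346 bases), held 499 and 308 CPM in rmTBI libraries 0 and 1, and 464 and 274 CPM in sham libraries 0 and 1. Here library 0 was the higher in both groups, and the log2 fold was 0.13 (SE 0.33). Site 3, with rows classed as coding and as 3' UTR (97629427 to 97631129, rmTBI set), held 49.7 and 77.2 CPM in rmTBI libraries 0 and 1, and 46.6 and 66.2 CPM in sham libraries 0 and 1. The log2 fold was 0.17 (SE 0.31), and the 7 peaks of the gene ranged from 0.03 to 0.22.

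Lrrc4, the gene of NGL-2, the ligand of netrin-G2, had 8 peaks at 3 sites on chromosome 6 (minus strand). Coding site 1 (28830223 to 28831030, rmTBI set) held 18.1 and 16.9 CPM in rmTBI libraries 0 and 1, and 20.1 and 18.7 CPM in sham libraries 0 and 1. The rmTBI libraries lay below the sham libraries, but by little, with a log2 fold of -0.15 (SE 0.24, 95% interval -0.71 to 0.42, adjusted p = 1, edgeR). Coding site 2 (28829536 to 28830074, rmTBI set) held 18.8 and 24.6 CPM in rmTBI libraries 0 and 1, and 20.7 and 21.9 CPM in sham libraries 0 and 1, so that the groups overlapped (log2 fold 0.03, SE 0.26). At the 3' UTR site (28828311 to 28828641), which was called in sham only, the counts were not lower in rmTBI. It held 26.8 and 23.1 CPM in rmTBI libraries 0 and 1, and 25.1 and 21.9 CPM in sham libraries 0 and 1 (log2 fold 0.09, SE 0.25, 95% interval -0.50 to 0.67).

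The Lrrc4 sites lie inside an rmTBI-set peak of Snd1 on the opposite strand (28745312 to 28874887), which makes their counts uncertain where reads were not assigned by strand. That peak had a log2 fold of 0.07 (SE 0.37). No peak of another gene overlapped a site of the other members.

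Lrrc4b, the gene of NGL-3, had 2 sites on chromosome 7 (plus strand). Site 1 has rows classed as coding and as 3' UTR (44461438 to 44462963, rmTBI set) and held 83.6 and 145 CPM in rmTBI libraries 0 and 1, and 82.5 and 133 CPM in sham libraries 0 and 1. The difference between the libraries of a group was far larger than that between the groups, and the log2 fold was 0.08 (SE 0.35, 95% interval -0.72 to 0.89). Site 2, in the 3' UTR (44463081 to 44463351, rmTBI set), held 6.97 and 11.4 CPM in rmTBI libraries 0 and 1, and 8.63 and 9.66 CPM in sham libraries 0 and 1 (log2 fold 0.01, SE 0.31).

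**Figure D2:**
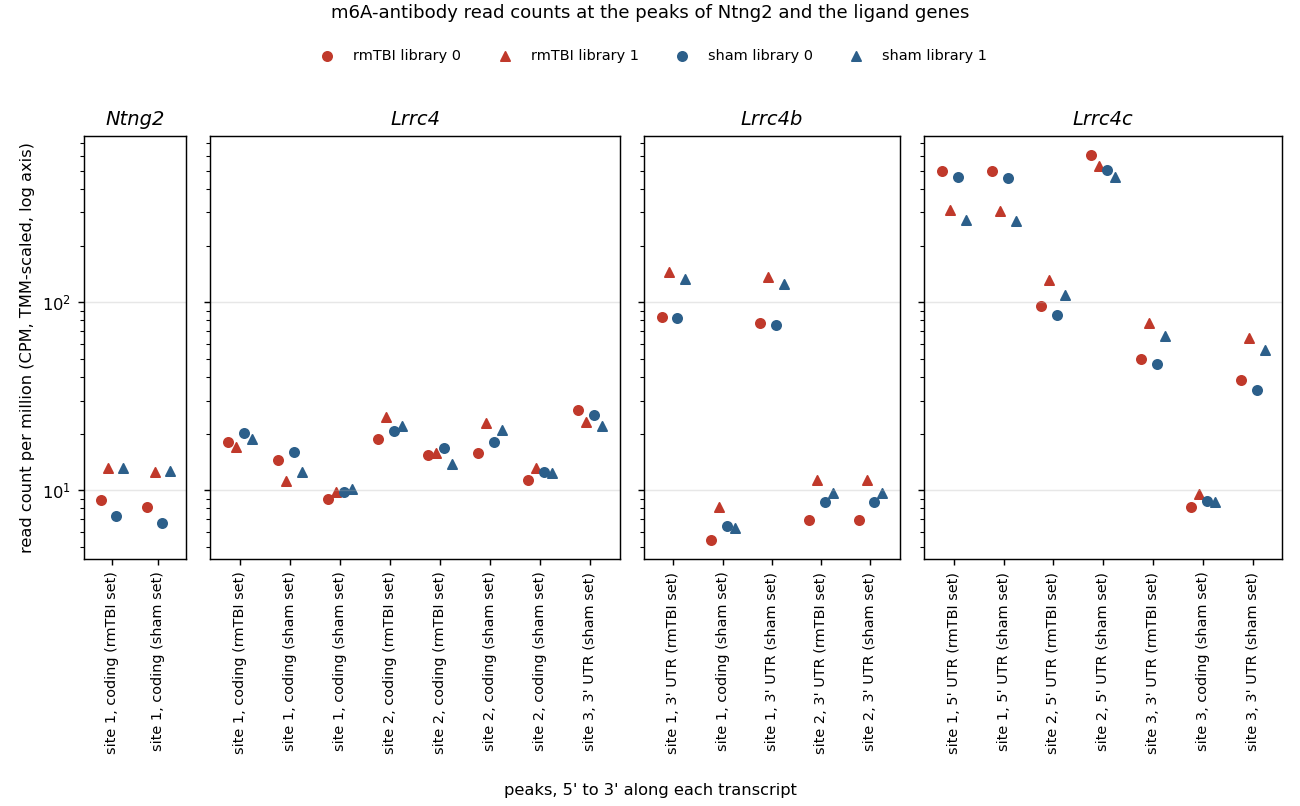
CPM (TMM-scaled, log axis) at the 22 peaks of Ntng2, Lrrc4, Lrrc4b and Lrrc4c, ordered 5' to 3' along each transcript, with 1 point per library (circles for library 0, triangles for library 1, rmTBI in red and sham in blue). At 19 of the 22 peaks the ranges of the rmTBI and sham libraries overlap.

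Of the 22 peaks outside Ntng1, 0 were called by edgeR or by DESeq2 in fits of the 2 groups without the label number, and 0 had an unadjusted p under 0.05 by edgeR, where 2.84% of all tested peaks did. Their median log2 fold was 0.08, beside 0.02 over all tested peaks with counts in every library. At 9 of the 22 the sign of the difference turned between the libraries numbered 0 and those numbered 1, as it did at 13139 of 33279 over all tested peaks with counts in every library. The groups did not overlap at 3 of the 22 peaks, 2 lower and 1 higher in rmTBI, where 24.5% of all tested peaks did not overlap in either direction. All 33 member peaks passed the filter on low counts. The 95% intervals of the 22 peaks lay between -0.79 and 1.02 on the log2 scale.

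**Figure D3:**
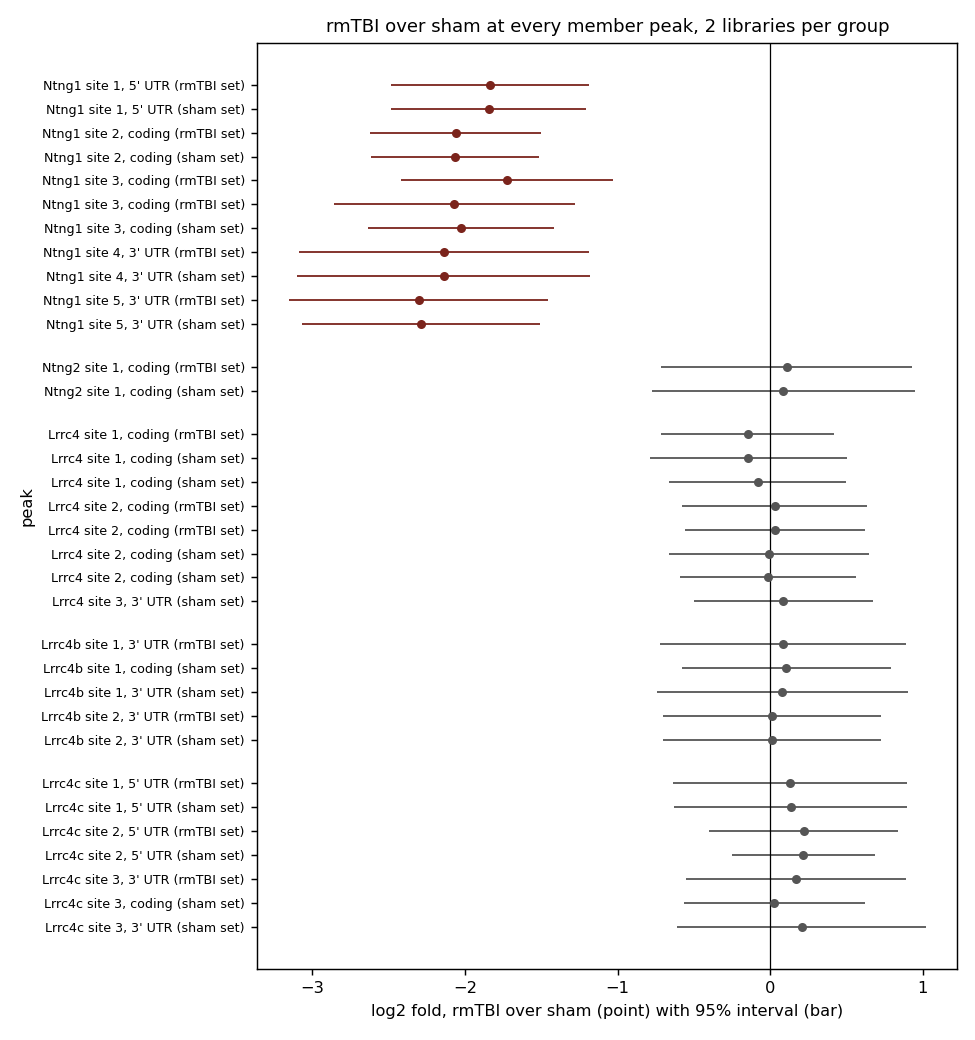
Log2 fold of rmTBI over sham at each of the 33 member peaks (point) with its 95% interval from edgeR's quasi-likelihood fit (bar), 2 libraries per group, grouped by gene. The 11 Ntng1 peaks lie between -2.30 and -1.72 and the other 22 between -0.15 and 0.22.

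Levels of different genes were compared per length, over peaks under 2000 bases, each gene at the peak with the highest mean CPM per kilobase. In rmTBI the order was Lrrc4c (165 ± 35.9 CPM per kilobase), Lrrc4b (96.3 ± 37.4), Lrrc4 (75.3 ± 7.83), Ntng1 (38.7 ± 14.9) and Ntng2 (28.9 ± 8.49; SD, n = 2 libraries each). In sham it was Ntng1 (171 ± 78.5 CPM per kilobase), Lrrc4c (142 ± 24.6), Lrrc4b (91.1 ± 31.6), Lrrc4 (71.0 ± 6.89) and Ntng2 (27.1 ± 11.9). Ntng1 thus stood 4th of 5 in rmTBI and 1st of 5 in sham, while the order of the other 4 genes was the same. In sham the neighbours Ntng1 and Lrrc4c, and Lrrc4b and Lrrc4, did not differ beyond their spread, and in rmTBI neither did Lrrc4b and Lrrc4, nor Ntng1 and Ntng2, each pair differing by less than the larger of its SDs.

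The ratio of library 1 to library 0 differed among the sites of a gene. At Ntng1 site 4 in the 3' UTR its log2 was 0.79 in rmTBI and 0.96 in sham, whereas at coding site 2 it was 0.12 in rmTBI and 0.12 in sham by the sham-set row. The groups parted more at Ntng1 site 5, with 0.78 in rmTBI and 0.34 in sham by the sham-set row. At Ntng1 site 1 it was 0.12 in rmTBI and 0.42 in sham by the sham-set row. In Lrrc4b site 1 it was 0.79 in rmTBI and 0.69 in sham, and at Lrrc4b site 2 (rmTBI set) 0.70 in rmTBI and 0.16 in sham. In Lrrc4c it was 0.63 in rmTBI and 0.51 in sham at site 3, and -0.70 in rmTBI and -0.76 in sham at the long site 1. Over the members the median log2 was -0.19 in rmTBI and -0.12 in sham for the 5 peaks of 2000 bases or more, of which 3 are Lrrc4c peaks. For the 2 others, both of Ntng1, it was 0.14 in rmTBI and 0.13 in sham. For the 28 member peaks under 2000 bases it was 0.49 in rmTBI and 0.29 in sham. Over all tested peaks with counts in every library the medians were -0.35 in rmTBI and -0.34 in sham for 6054 long peaks, and 0.15 in rmTBI and 0.11 in sham for 27225 shorter ones. With 1 library per group and number there is no test of these ratios.

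**Figure D4:**
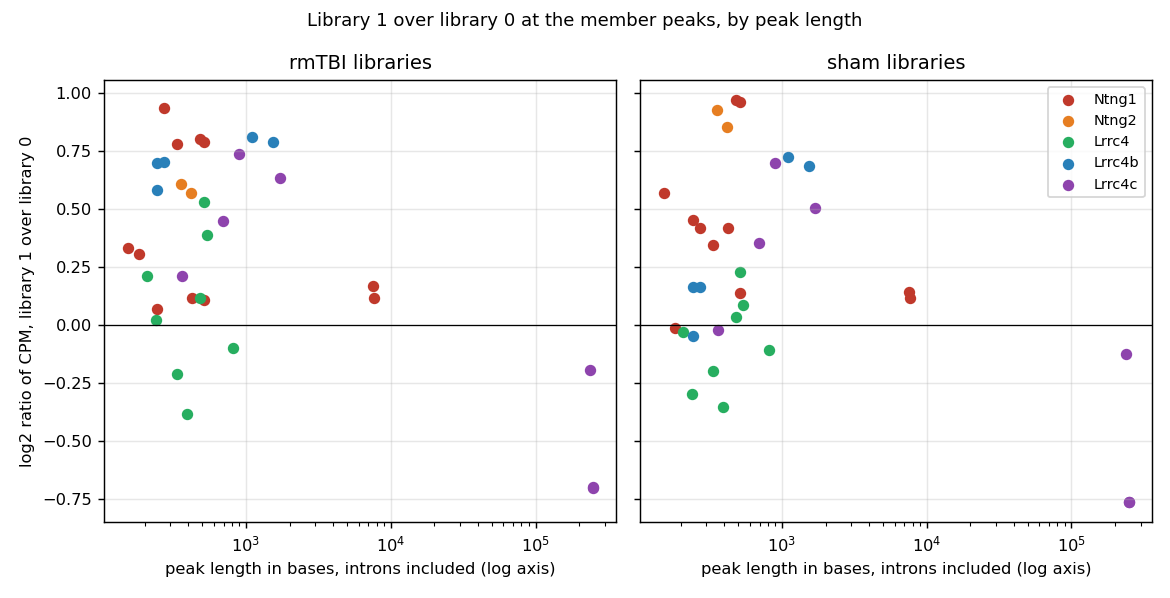
Log2 ratio of CPM in library 1 over library 0 at the 33 member peaks against peak length in bases with introns included (log axis), in rmTBI libraries (left) and sham libraries (right), coloured by gene. The 2 Lrrc4c peaks of about 250 kilobases lie lowest in both panels, and the 2 peaks of Ntng1 site 4 lie at 0.79 and 0.80 in rmTBI and at 0.96 and 0.97 in sham.

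The authors' deposited table gives a log2 fold, a p-value and an adjusted p per peak from a test that is not named, and its log2 fold tracks, up to a constant shift, the number 1 over number 0 ratio of rmTBI divided by that of sham, so that it is no fold of rmTBI over sham counts. For Ntng1 this log2 fold in the authors' deposited table ran from -0.34 to 0.56 over the 11 peaks. The p-values in the authors' deposited table were under 0.05 at 6 of the 11 Ntng1 peaks, against 1.65% of all 33977 peaks. They come from the same libraries as the Ntng1 values known when the genes were chosen, and are no evidence about Ntng1. Peaks of the same site also share reads. At coding site 2 (rmTBI set) the authors' deposited table paired a log2 fold of 0.07 with p = 0.000634 and an adjusted p of 0.998. At 3' UTR site 5 (rmTBI set) the authors' deposited table paired a log2 fold of 0.56 with p = 0.000150 and an adjusted p of 0.645, and 8 of all peaks had a p as small as this or smaller, this peak included.

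For the 22 peaks of the other members the authors' deposited table had no p under 0.05, with log2 folds from -0.27 to 0.67 and the smallest p of 0.313. None of the 33 member peaks was in the authors' deposited lists of higher or lower peaks. Across 33279 peaks, which are not independent replicates, the rank of the p-value in the authors' deposited table followed the size of its own log2 fold (Spearman's rho = 0.75 for smaller p with larger size) more closely than the size of the log2 fold of rmTBI over sham (rho = 0.25).

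Related genes were listed with earlier results of these data known. Of the netrins and their receptors, 9 of 11 genes were measured, with 22 peaks, and 0 were called in either direction by edgeR or DESeq2, with 0 at an unadjusted p under 0.05. The gene with the smallest p was Unc5b, a netrin receptor gene, whose 5' UTR peak held 2.58 and 5.43 CPM in rmTBI libraries 0 and 1, and 5.35 and 8.01 CPM in sham libraries 0 and 1 (unadjusted p = 0.114, adjusted p = 1, edgeR quasi-likelihood test). Of the intracellular and cell surface partners of the ligands, 6 of 6 were measured with 25 peaks, and again 0 were called by either tool, with 0 at an unadjusted p under 0.05. The gene with the smallest p there was Dlg4, which encodes the scaffold PSD-95 that NGLs bind, at a coding peak with 1.67 and 3.56 CPM in rmTBI libraries 0 and 1, and 1.28 and 1.94 CPM in sham libraries 0 and 1 (unadjusted p = 0.186, adjusted p = 1, edgeR). The log2 fold of that Dlg4 peak, 0.71, was the highest of the 7 peaks of the gene. They ran from -0.07 to 0.71, with a median of 0.05. The medians over the genes of these lists were -0.06 and 0.05 on the log2 scale.

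Of 25 other leucine-rich repeat genes of synaptic adhesion, 24 were measured with 164 peaks, and 1 peak was called, lower in rmTBI, where 0.0868% of all tested peaks were. It was that of Slitrk6, which encodes a neuronal transmembrane protein, with 0.758 and 0.791 CPM in rmTBI libraries 0 and 1, and 6.63 and 12.5 CPM in sham libraries 0 and 1. Its log2 fold was -3.63 (SE 0.42), which is likewise a description. An unadjusted p under 0.05 by edgeR was found at 6 of the 164 peaks, where 2.84% of all tested peaks had one. Higher in rmTBI were 2 each of Lrrtm4 and Slitrk5, and lower were 1 each of Slitrk3 and Slitrk6. Of the 24 genes, 14 had a median log2 fold above 0 and 10 below, and the list median was 0.06.

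**Figure D5:**
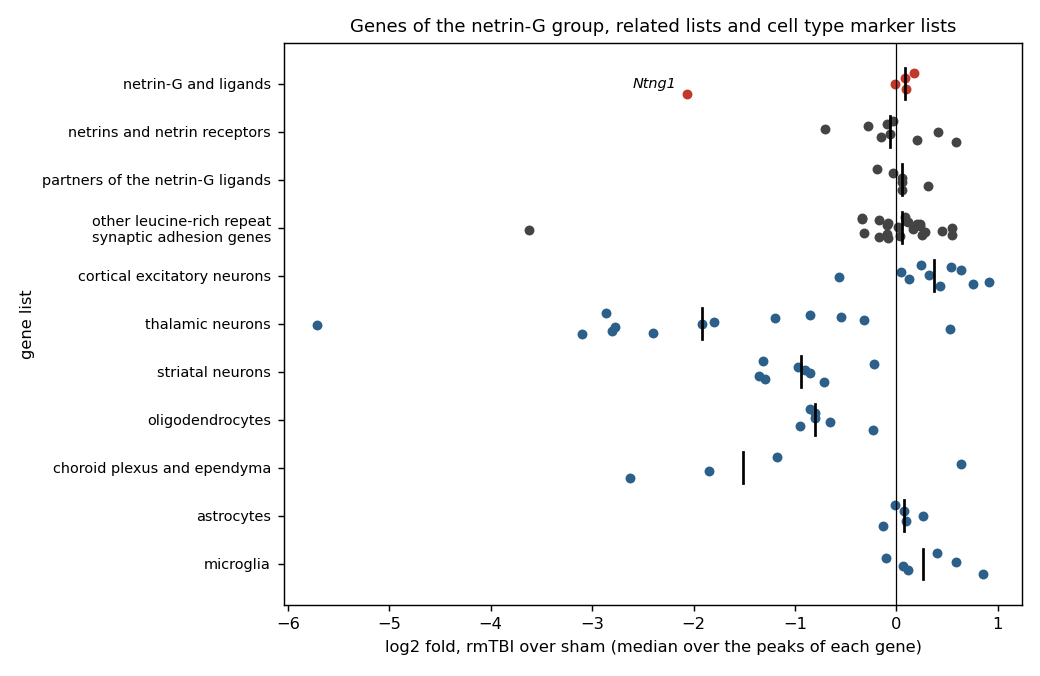
Log2 fold of rmTBI over sham for each gene (point, median over its tested peaks) of the netrin-G group (red), the related lists (grey) and the cell type marker lists (blue), with the median of each list as a vertical bar. Ntng1 lies at -2.07, apart from the other 4 members, and the thalamic markers have the lowest list median, -1.92.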

How the data were processed

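Per the submitters' processing notes, STAR, DESeq2 and the GRCm39 build were used, with no version or role. No source used here names the peak caller, how reads were counted or whether strand was used. The authors deposited raw read counts per peak and library in 1 table, with a log2 fold, a p-value and an adjusted p of an unnamed test. The peak length in bases is another deposited value. Peaks were called per condition and stacked, per the file headers. Groups and numbers came from the labels' titles. Counts of all 33977 peaks entered edgeR 4.0.16 (R 4.3.3) with TMM scaling, filterByExpr and the quasi-likelihood F-test of rmTBI against sham (2 residual degrees of freedom before moderation). P-values were Benjamini-Hochberg adjusted over 33415 tested peaks, and an adjusted p under 0.05 was called. The SE is the log2 fold divided by the square root of F, without sign. Alternatives were library-size and RLE scaling, other count filters, DESeq2 1.42.0, the label number as a block, each library left out, and each peak set alone. The members and lists were chosen with earlier results of these data known. The named genes were all members, the called and smallest-p gene of each related list, and the 5 genes with the profile closest to Ntng1. Genes of marker lists and neighbours in rank are given by list or chosen after their values were seen.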

Additional observations from a re-analysis of the deposited data

How the results depend on the processing

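The 11 Ntng1 peaks stayed lower in rmTBI under every alternative run, with log2 folds from -2.87 to -1.57. The count of called member peaks, 2 by edgeR, was 11 by DESeq2 (138 of all peaks), 0 with a minimum of 10 counts per library (0 of all peaks) and 0 with library-size scaling (2 of all peaks). It was 1 with only the rmTBI peak set (17 of all peaks). With 1 library left out it ranged from 5 to 11, namely 6 without rmTBI library 0, 11 without rmTBI library 1, 10 without sham library 0 and 5 without sham library 1, and the calls among all peaks, 29 by edgeR, ranged from 82 to 122. These fits assume that the lone library of a group varies like the other group, so more calls there are no sign of stability. The label numbers give 2 pairs of libraries, whose deviations correlated at r = 0.48 across peaks, and nothing says that they pair samples. With the replicate block 15 member peaks were called, 11 of Ntng1 and 4 of Lrrc4c, the Lrrc4c peaks higher in rmTBI (3553 of all peaks); the block changed no other member's call. Outside Ntng1 the sign of the log2 fold turned when 1 library was left out at 7 of the 9 sites by their strongest row. Such a fit also leaves the label numbers uneven between the groups. By the strongest row of these sites, rmTBI over sham kept 1 sign within both label numbers at Ntng2, Lrrc4 site 3 and Lrrc4b site 1. It also did so at Lrrc4c sites 1 and 3. A weaker row turned sign between the numbers at Ntng2, Lrrc4b site 1 and Lrrc4c site 3. At Lrrc4 site 2 and Lrrc4b site 2 every row turned sign between the numbers. With 1 library left out, the log2 fold ranged from -0.26 to 0.61 at Ntng2, from -0.18 to 0.20 at Lrrc4 site 2, from -0.035 to 0.19 at Lrrc4 site 3, from -0.37 to 0.47 at Lrrc4b site 1, from -0.39 to 0.30 at Lrrc4b site 2, from -0.27 to 0.55 at Lrrc4c site 1 and from -0.18 to 0.45 at Lrrc4c site 3. At Lrrc4b site 2 it was -0.0043 with only the rmTBI peak set. The cause of these changes was not tested. With 2 libraries per group, the 95% intervals outside Ntng1 reach 0.42 or more on the log2 scale at all 22 peaks.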
